A study of Mus musculus with 2 samples.

Results

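ST2-positive Foxp3 cells are the regulatory T cells (Tregs) of visceral fat (visceral adipose tissue, VAT) that carry the receptor for IL-33. Members were chosen by their own counts of 2 genes: a cell was taken when it held at least 1 unique molecular identifier (UMI, a counted RNA molecule) of Foxp3 and at least 1 of Il1rl1, the gene for ST2. In all, 569 of 13191 cells met this rule. They were 163 of 6853 cells in the library from mice lacking CD27 (CD27_KO, CD27-/-) and 406 of 6338 cells in the library from wild-type mice (WT). Both genotypes carry the label C57BL/6, and no age is given. The cells were TCRb-positive CD4 T cells sorted out of the fat's stromal vascular fraction, which holds its cells other than adipocytes. Mice were pooled (10, as the labels' protocols put it). CD27, a receptor that costimulates T cells when bound by CD70, belongs to the TNF receptor family.

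Foxp3 is the transcription factor that defines Tregs. In fat, many Tregs also carry ST2, and IL-33 from stromal cells sustains them. They are known for the transcription factors GATA3 and PPARg, the surface receptor KLRG1, the cytokine IL-10 and the growth factor amphiregulin, and for restraining inflammation in the tissue. Th2 cells of the same fat share ST2 and GATA3 but lack Foxp3.

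Each genotype has 1 library of pooled mice, so there is no measure of the spread between mice and no p-value was computed. Every interval is an exact 95% interval that covers counting error only. Levels are UMIs summed over the cells of a group and scaled to the group's total (CPM). Members held 1143196 UMIs in CD27_KO and 2098003 in WT. Their median UMI count was 5568 per cell in CD27_KO and 3968.5 in WT, against 2209 and 1945.5 over all cells of the same libraries. Of the members, 66.3% in CD27_KO and 51.7% in WT held over 2 times their library's median. The rule itself favours deep cells, since a shallow cell can miss either gene. The libraries shared 12 cell barcodes, which 1 member of CD27_KO and 3 of WT carried.

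The sequences below are the promoters of Areg and Cxcl2, shown because these 2 genes of the VAT Treg list had the most UMIs among those that differed between genotypes in these cells. Areg encodes amphiregulin and Cxcl2 a chemokine that draws neutrophils. Both lie on the plus strand of chromosome 5 in GRCm38.p6, at chr5:91139349-91139648 and chr5:90903649-90903948. Each RefSeq window runs from 250 bases before the start of the gene to 50 after it, 5′ to 3′. Capitals mark matches on either strand to 5 motifs: AP-1 (TGANTCA), the cAMP response half-site (TGACG), NF-kB (3 G, any 2 bases, 3 T and 2 C), the motif of GATA factors, searched as AGATAA, and the TATA box, searched as TATAAA.
Areg: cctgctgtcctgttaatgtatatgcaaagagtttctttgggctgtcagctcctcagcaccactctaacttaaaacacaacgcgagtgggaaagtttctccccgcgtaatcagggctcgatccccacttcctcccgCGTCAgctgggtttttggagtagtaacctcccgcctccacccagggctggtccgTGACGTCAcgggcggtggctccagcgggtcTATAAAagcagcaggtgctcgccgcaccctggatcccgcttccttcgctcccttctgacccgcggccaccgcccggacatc
Cxcl2: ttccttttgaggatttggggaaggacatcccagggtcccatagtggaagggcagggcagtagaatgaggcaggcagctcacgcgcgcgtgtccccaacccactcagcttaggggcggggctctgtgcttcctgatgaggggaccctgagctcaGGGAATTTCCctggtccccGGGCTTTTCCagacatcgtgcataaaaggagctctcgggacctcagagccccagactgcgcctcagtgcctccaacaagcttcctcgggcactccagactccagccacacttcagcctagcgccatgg
Areg holds 3 matches to the cAMP response half-site, 2 of which overlap on opposite strands, and a TATA box beginning 31 bases before the start. Cxcl2 holds 2 matches to the NF-kB letters, beginning 97 and 78 bases before the start. The cAMP half-site letters occur in 20.8% of 32851 mouse promoter windows, the NF-kB letters in 1.63% and the TATA box letters in 13.6%. AP-1 and GATA letters occur in 7.81% and 11.2% of windows and in neither of these. A match describes letters in the window and no binding was measured.

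The members carried the markers of their label. All 163 CD27_KO and 404 of 406 WT members held at least 2 UMIs over 6 T cell genes. Ikzf2, which encodes the Treg factor Helios, had a UMI in 92.6% of members of either library. Ctla4, the inhibitory receptor of Tregs, had one in 90.2% of CD27_KO and 88.4% of WT members. Of the macrophage and dendritic markers, Csf1r, Adgre1 and Itgax were at 0 in both libraries. NK and CD8 T cell genes summed to 14.9 CPM in CD27_KO and 39.1 CPM in WT members. Cd8a was at 0 in both libraries, Cd8b1 was seen in 14 and 17 members, and Gzma had 0 and 43 UMIs. Mast cell and basophil genes summed to 60.4 and 54.8 CPM, with 2 or more UMIs in 10 and 8 members. Most of these were Hdc, seen in 15 and 13 members, while Mcpt8, Mcpt4, Fcer1a, Ms4a2 and Prss34 were at 0. B cell genes summed to 171 CPM in CD27_KO and 122 CPM in WT members, mostly Ighm, which 85 and 146 members held. Macrophage and dendritic genes, 7 and 8 of 12 of which had a UMI, summed to 143 CPM in CD27_KO and 310.3 CPM in WT. Cd74 had the most of these, at 79.6 and 142.5 CPM, and was seen in 22 and 63 members. H2-Aa was seen in 6 and 18 members, H2-Ab1 in 8 and 23, and H2-Eb1 in 5 and 28. Siglech, a marker of plasmacytoid dendritic cells, was seen in 3 and 12 members. Whether RNA of other cells adds to any gene below was not tested, except where a value without such cells is given.

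The 2 genes that chose the cells were low. Median counts per member were 1 UMI of Foxp3 and 3 of Il1rl1 in either library. Members at the edge of the rule, with exactly 1 UMI of each, numbered 21 in CD27_KO and 76 in WT, and 81.0% and 86.8% of them held Ikzf2. Just outside the rule, Il1rl1 cells with no Foxp3 UMI held Ikzf2 in 11.0% of 1743 cells in CD27_KO and 58.5% of 962 in WT. Foxp3 cells with no Il1rl1 UMI held it in 76.9% of 160 and 75.9% of 220. Among cells without Cd3 UMIs and with 5 or more UMIs of B cell or myeloid genes, 0 of 26 in CD27_KO and 0 of 31 in WT met the rule. These few cells, with median UMIs of 3770.5 and 2509, allow shares of up to 13.2% and 11.2%. Naive-like T cells, chosen by naive T cell genes such as Ccr7 and Lef1, met the rule in 5.46% and 5.03% of cells. Those cells held Ikzf2 in 19 of 19 and 48 of 49, against 8.28% and 9.08% of the naive-like cells with neither gene. They were also deeper, with median UMIs of 8102 and 7951 against 2218 and 2115, and the part of depth was not tested.

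ST2-positive Foxp3 cells were scarcer in CD27_KO. They made up 2.38% of cells in CD27_KO (95% interval 2.03 to 2.77) and 6.41% in WT (5.82 to 7.04), a ratio of 0.371 (0.308 to 0.446). With each cell thinned to 1300 UMIs, which left out 55 CD27_KO and 547 WT cells, the shares were 0.544% and 2.16%, a ratio of 0.252 (0.17 to 0.366). Foxp3 itself was seen in 4.71% of CD27_KO and 9.88% of WT cells. Of these Foxp3 cells, 50.5% in CD27_KO (163 of 323) and 64.9% in WT (406 of 626) also held Il1rl1, a ratio of 0.778 (0.645 to 0.935). Thinned, these were 24.7% and 43.1%. In a sorted sample, a share depends on the number of all other cells too, so fewer Tregs and more of the other cells cannot be told apart.

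Il1rl1 itself was seen in 27.8% of CD27_KO cells and 21.6% of WT cells, so Il1rl1 cells as a whole were not scarcer in CD27_KO. Of Il1rl1 cells, 8.55% in CD27_KO and 29.7% in WT held Foxp3. Ikzf2, which the rule did not use, was held by 18.0% of Il1rl1 cells in CD27_KO and 68.6% in WT, and Ikzf2 together with Ctla4 by 13.9% and 57.4%. Thinned to one depth, the last pair was 5.28% and 34.6%. Cells with Il1rl1, Ikzf2 and Ctla4, whatever their Foxp3 count, were 3.87% of CD27_KO cells and 12.4% of WT cells, a ratio of 0.312 (0.271 to 0.359). This definition was chosen after the data were seen. It held 265 CD27_KO and 785 WT cells, against 163 and 406 under the Foxp3 rule.

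**Figure D1:**
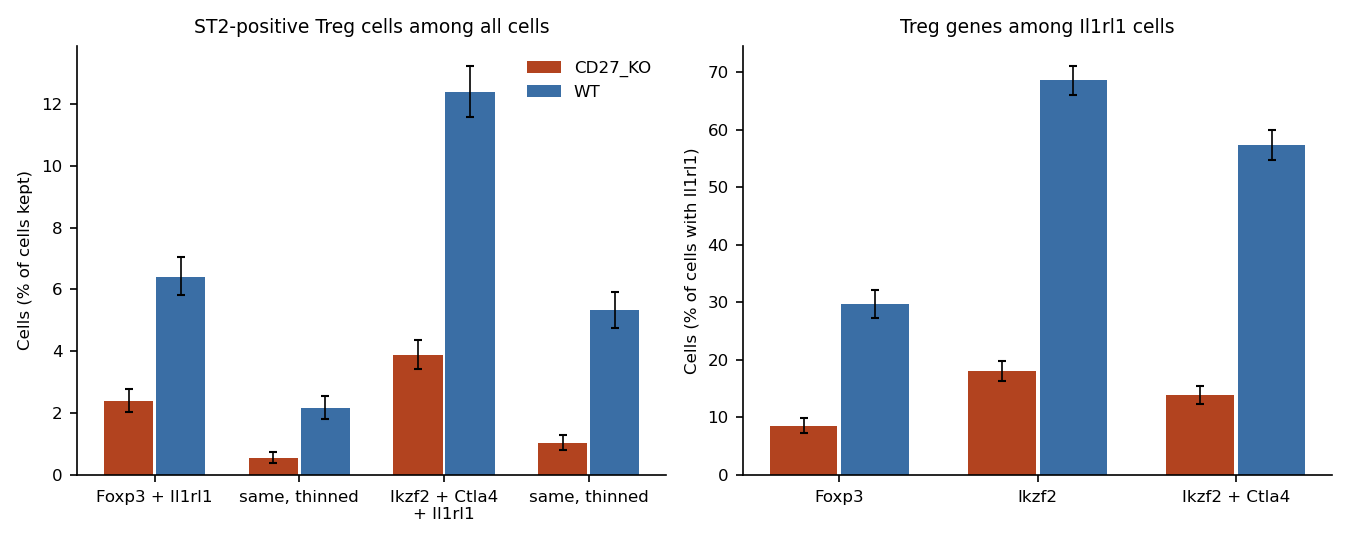
Share of cells (percent, y axis) in CD27_KO (red, left of each pair) and WT (blue), with exact 95% intervals for counting error. Left, ST2-positive Treg cells among all cells by Foxp3 and Il1rl1 or by Ikzf2, Ctla4 and Il1rl1, as deposited and thinned to 1300 UMIs per cell; right, Treg genes among Il1rl1 cells, where Ikzf2 stood at 18.0% in CD27_KO and 68.6% in WT.

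Of the 20 measured genes of the VAT Treg list, 6 were 1.5-fold lower in CD27_KO members and none was 1.5-fold higher. Over all 5816 genes compared in the members, 6.05% were 1.5-fold higher in CD27_KO and 3.25% were 1.5-fold lower. The list was chosen with earlier results of these data known, so its count is a description. Gata3, Rora, Pparg, Klrg1, Ccr2 and Nfil3 were among the 14 that did not pass. Gata3 had 518 CPM in CD27_KO and 465 CPM in WT members, a log2 ratio of CD27_KO over WT of 0.16 (0.01 to 0.30). Rora, a nuclear receptor of tissue Tregs, had 349.0 and 349.4 CPM. Pparg, the master factor of fat Tregs, had 42.0 and 45.3 CPM, a log2 ratio of -0.11 (-0.64 to 0.41). Klrg1 had 307 and 400.4 CPM, a log2 ratio of -0.38 (-0.57 to -0.20). Ccr2, a chemokine receptor of cells that enter tissue, had 457 and 423 CPM. Nfil3, a factor of effector Tregs, had 26.2 and 25.3 CPM. The intervals of Gata3 and Klrg1 leave out 0 on opposite sides. Without the cells over 2 times their library's median UMIs, Gata3 and Pparg did reach 1.5-fold, at log2 ratios of 0.74 and 1.11. Among general Treg genes, Ikzf2 (log2 ratio -0.31), Ctla4 (0.05), Il2ra (-0.21) and Tnfrsf18 (-0.11) did not reach 1.5-fold.

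The 6 that passed were Areg, Cxcl2, Il10, Rln3, Gzmb and Irf4. Areg had 744 CPM in CD27_KO members and 1426 CPM in WT members, a log2 ratio of -0.94 (-1.05 to -0.83). Cxcl2 had 830.1 and 2649 CPM, a log2 ratio of -1.67 (-1.77 to -1.57). Il10, the anti-inflammatory cytokine, had 34.1 and 87.2 CPM, a log2 ratio of -1.35 (-1.89 to -0.85). Rln3, which encodes the peptide relaxin 3, had 16 and 121 UMIs, a log2 ratio of -2.04 (-2.90 to -1.29). Gzmb, which encodes the protease granzyme B, had 77.0 and 137 CPM, and Irf4, a factor of effector Tregs, had 29.7 and 53.4 CPM. The list's median log2 ratio was -0.26, against 0.10 for all measured genes. Without those deep cells, Irf4 stood at -0.25 and Gzmb at -0.30, both short of 1.5-fold, and the list's median at -0.12.

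Shares of cells show the same order. At one depth, Areg was seen in 38.0% of CD27_KO members (30.6 to 46.0) and 53.2% of WT members (48.1 to 58.3). Cxcl2 was seen in 22.1% and 53.0%, and Il10 in 3.07% and 10.5%. Gata3 was seen in 44.8% and 41.9%, Klrg1 in 37.4% and 40.9%, and Pparg in 4.29% and 6.68%, with intervals that overlap. In naive-like cells without Foxp3 and Il1rl1, Areg was seen in 0.345% in CD27_KO and 0.993% in WT at the same depth. Il10 was seen there in 0 of 290 CD27_KO cells and 0.124% of WT cells. Without thinning, Areg was seen in 55.2% of CD27_KO and 72.7% of WT members, against 2.07% and 2.03% of the naive-like cells. Among the cells without Cd3 and with 5 or more B cell or myeloid UMIs, Areg was seen in 3 of 26 in CD27_KO and 1 of 31 in WT. Cxcl2 was seen in 2 and 3 of them. Of the 5 genes Areg, Klrg1, Gata3, Rora and Il2ra, 17.2% of CD27_KO members and 9.51% of WT members showed none at one depth. Among members at one depth, Areg was seen in 49.2% of CD27_KO members with Klrg1 and 31.4% of those without, and in 62.9% and 46.5% of WT members. With and without Gata3 the Areg shares were 45.2% and 32.2% in CD27_KO, and 51.5% and 54.4% in WT.

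**Figure D2:**
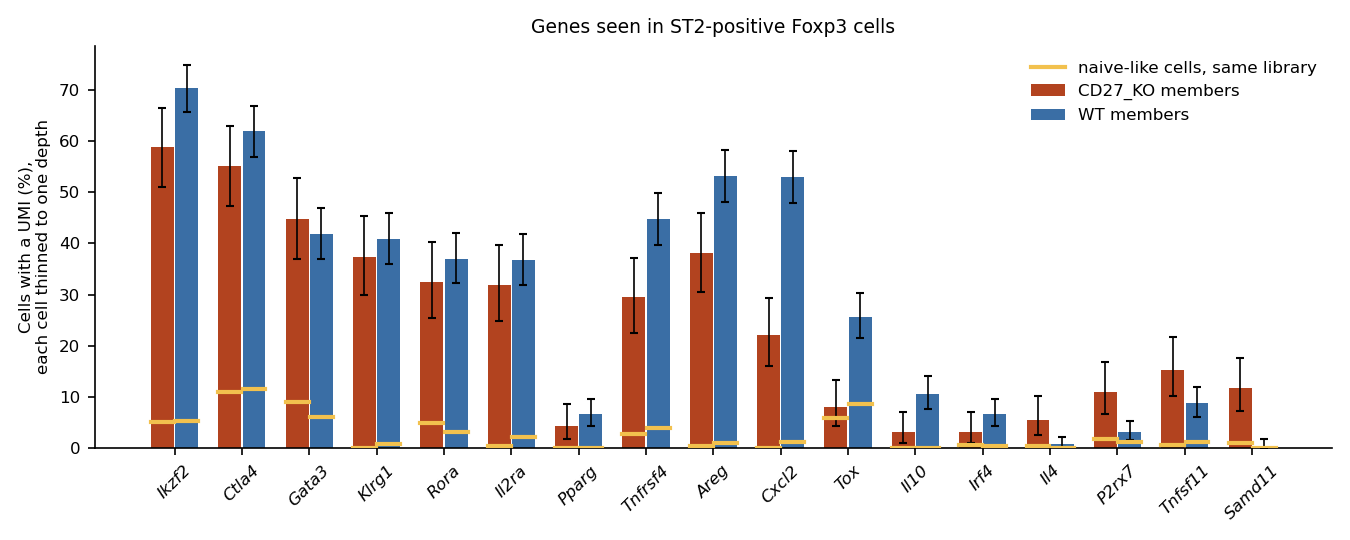
Share of ST2-positive Foxp3 cells with a UMI of each gene (percent, y axis), each cell thinned to 1300 UMIs, in CD27_KO (red, left) and WT (blue), with exact 95% intervals; yellow lines give naive-like cells of the same library. Areg, Cxcl2, Il10, Tnfrsf4 and Tox are lower in CD27_KO members, P2rx7, Il4 and Samd11 are higher, and the intervals of Gata3, Klrg1, Rora and Pparg overlap.

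The VAT Treg list was not lower in the members alone. Its median log2 ratio was -1.30 among ST2-positive Gata3 cells without Foxp3, against 0.08 for all genes. Those cells differed in Treg genes, with Ikzf2 in 11.1% in CD27_KO and 60.4% in WT, and Ctla4 in 20.9% and 59.9%. Their ratios here mix the make-up of the cells with genotype, which cannot be told apart. Among all cells other than members it was -0.52, against 0.16 for all genes. In ST2-negative Foxp3 cells it was 0.10, against 0.12 for all genes. Areg and Cxcl2 were also lower in CD27_KO outside the members. Among ST2-negative Foxp3 cells, Areg had 125 CPM in CD27_KO and 513 CPM in WT, and Cxcl2 had 157 and 799 CPM. Among ST2-positive Gata3 cells without Foxp3, Areg had 351 and 1065 CPM and Cxcl2 had 278 and 1932 CPM. Il10 had 1.98 CPM in CD27_KO and 52.3 CPM in WT among the ST2-positive Gata3 cells without Foxp3. Among ST2-negative Foxp3 cells Il10 had 33.1 CPM in CD27_KO and 16.9 CPM in WT, from 19 and 11 UMIs, a log2 ratio of 0.97 (-0.18 to 2.19), and whether the 2 Foxp3 populations differ in this was not tested.

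Cd27 was first checked against the labels. Cd27 had 1 UMI in 1 of 163 CD27_KO members and 284 UMIs in 183 of 406 WT members, a log2 ratio of -7.27 (-12.58 to -4.78). Of the 5816 genes compared, 352 were 1.5-fold higher and 189 were 1.5-fold lower in CD27_KO members. Of these, 286 and 144 had an interval that left out 0. Of the 352, 96 were also 1.5-fold higher in CD27_KO among all other cells, and of the 189, 71 were also lower there. On the opposite side of 0 there stood 17 of the 352 and 55 of the 189. The share of all compared genes past 1.5-fold in all other cells is not given, so these counts are a description. Without deep cells 200 of the 352 and 126 of the 189 stayed past 1.5-fold, with no minimum of UMIs applied. With log2 ratios centred on the median gene, which stood at 0.09, 230 were higher and 272 lower, so the split between directions depends on the scaling.

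The gene furthest higher in CD27_KO members was Samd11, which encodes a SAM domain protein. It had 78.7 CPM in CD27_KO and 5.24 CPM in WT members, a log2 ratio of 3.91 (3.00 to 4.96), seen in 42 and 10 cells. Its log2 ratio was 4.24 among all other cells. The end of its transcript has stretches over 95% alike in 9 other genes, so its counts are uncertain. Il4, the Th2 cytokine, had 45 UMIs in 29 CD27_KO members and 22 UMIs in 17 WT members, a log2 ratio of 1.91 (1.14 to 2.71). P2rx7, a receptor for extracellular ATP, had 82.2 and 28.6 CPM, a log2 ratio of 1.52. Srpk2, a kinase of splicing factors, had 253 and 93.4 CPM, a log2 ratio of 1.44. Rnf128, the ubiquitin ligase GRAIL, had 84.9 and 35.3 CPM, a log2 ratio of 1.27. Iigp1 and Gbp5, GTPases induced by interferon, stood at log2 ratios of 1.88 and 1.53. Without deep cells P2rx7 and Iigp1 both stood at 0.52, short of 1.5-fold. Podnl1 (1.86), Chn2 (1.41) and Epm2aip1 (1.37) complete the 10 furthest higher. In all other cells Gbp5 stood at 0.16 and Podnl1 and Chn2 at 0.56 and 0.57, short of 1.5-fold.

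In summed level, the Il4 of these cells was not matched by Il5. Il5 had 25.4 CPM in CD27_KO and 22.9 CPM in WT members, a log2 ratio of 0.15 (-0.57 to 0.84). Il13 had 22.7 and 24.3 CPM, but 1 WT cell held 94.1% of the WT UMIs. By share of members, Il5 was seen in 10.4% in CD27_KO and 3.94% in WT, and Il13 in 4.29% and 0.985%. At one depth these shares were 1.84% and 1.29% for Il5, and 1.23% and 0.514% for Il13. Il4 was seen in 17.8% of CD27_KO members (29 of 163) and 4.19% of WT members (17 of 406), and at one depth in 5.52% and 0.771%. In naive-like cells it was seen in 0.690% and 0.239% without thinning. Members with Il4 still carried Treg genes, since 28 of 29 in CD27_KO and 16 of 17 in WT held Ikzf2. They were deeper, with median UMIs of 7454 and 7842, against 5411.5 and 3882 in members without Il4. In CD27_KO, Il4 was also higher among ST2-positive Gata3 cells without Foxp3, at 105 CPM, against 30.4 CPM in WT. Those cells differ in make-up between the libraries, as given above for Ikzf2. Whether depth or RNA of such cells in the same droplets adds to the Il4 count was not tested.

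On the lower side, the furthest genes after Cd27 were of several kinds. Nrn1, which encodes neuritin, a protein of activated Tregs, had 10.5 CPM in CD27_KO and 48.6 CPM in WT members, a log2 ratio of -2.21 (-3.21 to -1.34). Mmp25, which encodes a membrane metalloprotease, had 8 and 55 UMIs, a log2 ratio of -1.91 (-3.19 to -0.83), while it stood at 0.11 among all other cells. Fam177a, whose transcript end is shared with other genes so that its counts are uncertain, stood at -2.01 in members and -1.80 in all other cells. Cox6a2, Ly6d and Fcer1g, genes known from plasmacytoid dendritic cells and other myeloid cells, had log2 ratios of -2.84, -2.61 and -2.20. They came from 10, 8 and 16 WT cells, and Cox6a2 came from 1 CD27_KO cell. Macrophage and dendritic markers moved with them, with 2 or more such UMIs in 9 of 163 CD27_KO and 33 of 406 WT members, and the part of those cells was not tested. Ccl1, a chemokine, stood at -2.06, but 1 WT cell held 83.7% of its WT UMIs, and it stood at -0.77 without each library's top cell.

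**Figure D3:**
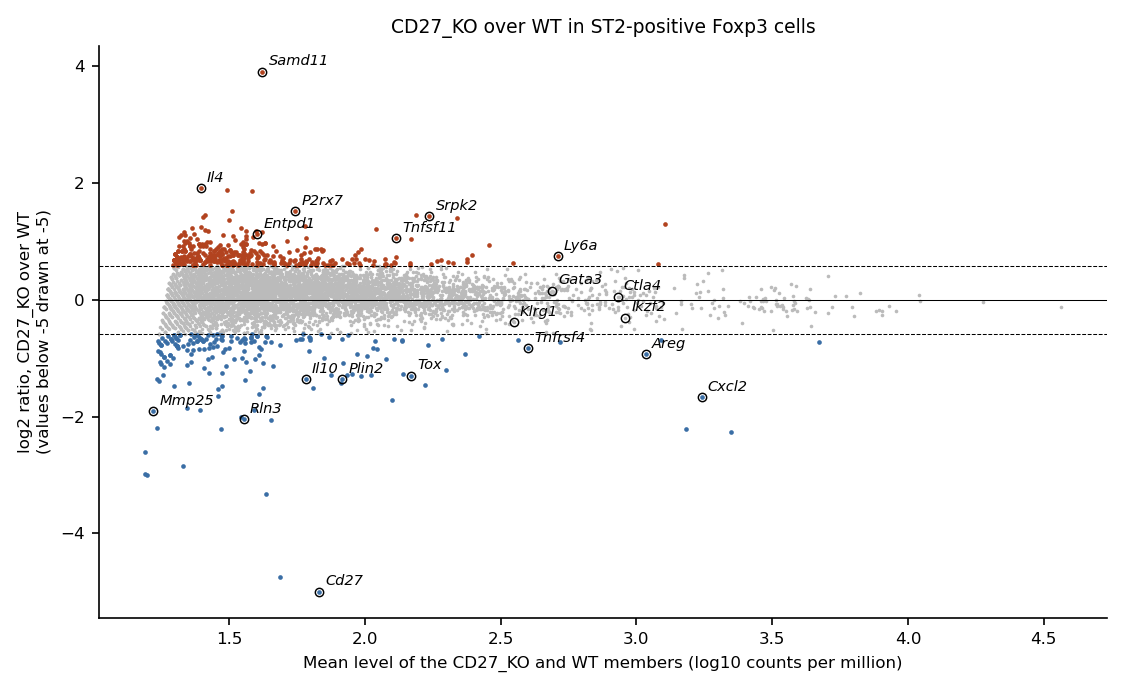
log2 ratio of CD27_KO over WT (y axis) against mean level (log10 CPM, x axis) for the 5816 genes compared in ST2-positive Foxp3 cells, with dashed lines at 1.5-fold, red above and blue below them. Samd11 lies furthest above at 3.91, Cd27, at -7.27, is drawn at the lower edge, Cxcl2 and Areg are among the abundant genes below the lower line, and Gata3, Klrg1, Ikzf2 and Ctla4 lie between the lines.

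Receptors of the TNF family and their ligands were read next. Of 12 compared genes of the TNF receptor list, Tnfsf11 was 1.5-fold higher and 3 were lower, with Cd27 left out of these counts. Tnfrsf4, the costimulatory receptor OX40, had 287 CPM in CD27_KO and 511 CPM in WT members, a log2 ratio of -0.83 (-1.02 to -0.65), and was seen at one depth in 29.4% and 44.7%. Fas, the death receptor, had 17 and 54 UMIs, a log2 ratio of -0.79 (-1.67 to 0.02), and Tnfrsf25 stood at -0.72. Tnfsf11, which encodes RANKL, had 176 and 84.4 CPM, a log2 ratio of 1.06 (0.76 to 1.36). Tnfrsf9, the costimulatory receptor 4-1BB, stood at -0.34 (-0.76 to 0.07). Downstream of these receptors, 1 of 16 compared TRAF and NF-kB genes was 1.5-fold higher and none was lower. That gene, Nfkb2, had 35.9 and 15.7 CPM, a log2 ratio of 1.19 (0.49 to 1.90), but -0.65 without deep cells. Among genes of the receptor that IL-33 binds, 0 of 9 compared genes passed 1.5-fold in either direction, and its accessory chain Il1rap had 12 and 13 UMIs.

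Other lists were read in the same way. Of 11 compared inhibitory and costimulatory receptor genes, none was higher and 3 were lower: Cd200 (-1.48), Tox (-1.30) and Pdcd1 (-0.62). Tox, a factor of chronically stimulated T cells, had 85.7 CPM in CD27_KO and 211 CPM in WT members, and at one depth it was seen in 7.98% and 25.7%, against 5.86% and 8.68% of naive-like cells. Of 14 compared genes induced by the T cell receptor, Nr4a1 (394 and 651 CPM, log2 ratio -0.72) and Irf4 were lower and Egr3 (0.66) was higher, with Egr3 at -1.94 without deep cells. Of 9 recirculation genes, Ccr7 (-1.39), Klf2 (-0.94) and S1pr1 (-0.78) were lower and Satb1 (0.63) was higher. These 3 were lower in CD27_KO among all other cells too, at -1.82, -0.90 and -0.77. Of 13 chemokine and receptor genes, Cxcl2, Cxcl3 (-1.61), Ccl1 and Ccl4 (-0.63) were lower and Cxcr3 (0.62) was higher. Ccl4 came mostly from 1 cell in CD27_KO, with 69.4% of the UMIs, and stood at 0.77 after thinning.

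Core Treg genes gave 2 higher and 1 lower of 16. Entpd1, which encodes CD39, the enzyme that breaks down extracellular ATP, had 55.1 CPM in CD27_KO and 25.3 CPM in WT members, a log2 ratio of 1.13 (0.58 to 1.68). Itgb8, an integrin chain that activates TGF-beta, had 29.7 and 15.7 CPM, a log2 ratio of 0.92 (0.18 to 1.66), and -0.06 without deep cells. The lower one was Tnfrsf4. Of 8 compared interferon response genes, 2 were higher, Ly6a among them, and none was lower. Ly6a, the surface protein Sca-1, had 644 CPM in CD27_KO and 384 CPM in WT members, a log2 ratio of 0.75 (0.60 to 0.89), and shares its transcript end with Ly6c1. In all other cells Ly6a stood at 0.77.

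Lipid handling gave 1 lower of 10. Plin2, which coats lipid droplets, had 46.4 CPM in CD27_KO and 119 CPM in WT members, a log2 ratio of -1.36 (-1.82 to -0.93). Dissociation and immediate early genes, which handling of the tissue can induce, gave 3 lower of 14: Ier3 (-1.02), Jun (-0.69) and Dnajb1 (-0.67), with a list median of -0.17. Cell cycle genes gave 2 higher of 8, Pclaf (0.99) and Top2a (0.67), and their list median was 0.39 in members and 0.76 in all other cells. Mki67, a mark of dividing cells, was seen in 14 CD27_KO and 19 WT members. Survival genes gave 2 higher, Fasl (0.68) among them, and 1 lower, Pmaip1 (-1.13), of 14. The tissue residency list gave Bhlhe40 (0.61, and -0.24 without deep cells) of 10 as higher, the glycolysis and hypoxia list Pdk1 (0.61) of 12, and the type 1 and type 17 list Cxcr3 of 6. The IL-2 and STAT5 list gave Socs3 (-0.67) of 13 as lower. The list of type 2 cytokines and receptors gave Il4 as higher and Csf2 (-1.28) as lower of 7, where 1 WT cell held 51.8% of the Csf2 UMIs and the ratio without top cells was -0.56, and 1.20 without deep cells.

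**Figure D4:**
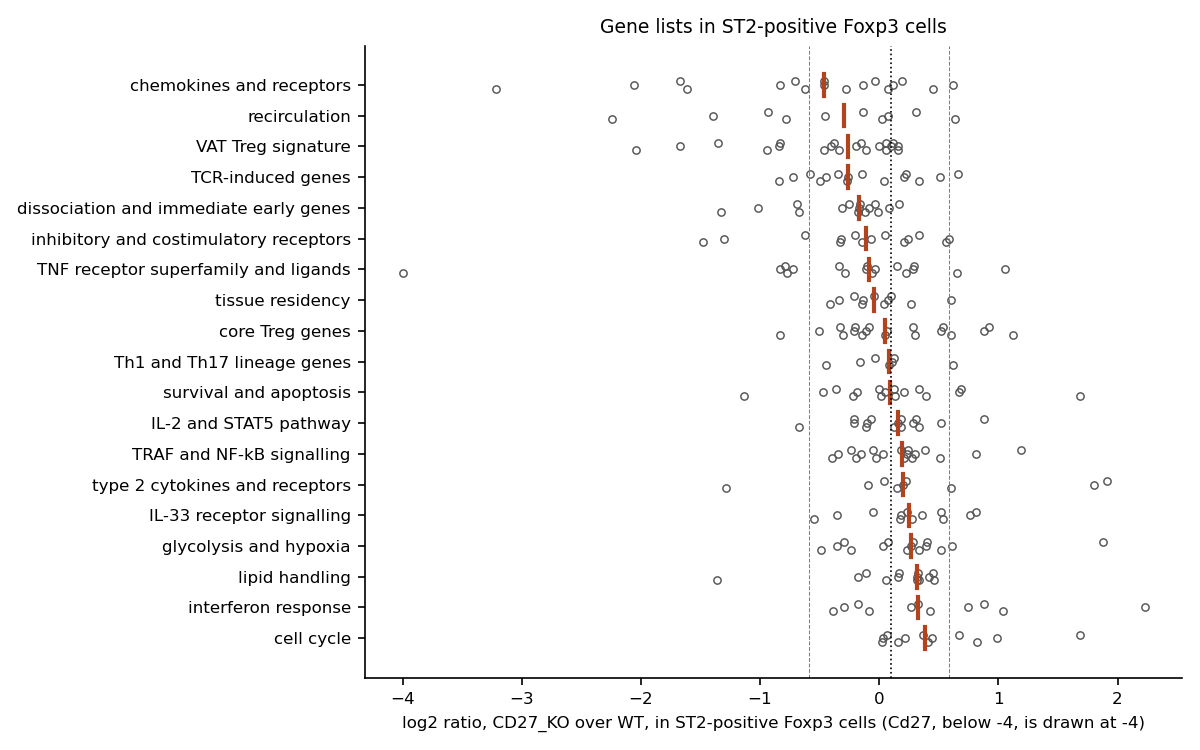
log2 ratio of CD27_KO over WT in ST2-positive Foxp3 cells (x axis) for each measured gene (circles) of the 19 gene lists (rows), with each list's median as a red bar, the median of all measured genes as a dotted line and 1.5-fold as dashed lines; Cd27 is drawn at the left edge and enters no median. The VAT Treg list, with a median of -0.26, has 6 genes beyond the left dashed line and none beyond the right one, while the cell cycle list has the highest median at 0.39.

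Next, the members were set against Foxp3 cells with no Il1rl1 UMI. Of 3954 genes compared within both libraries, 115 (2.91%) were 1.5-fold higher in members in both, and 22 (0.556%) were lower. Gata3 was higher by log2 ratios of 1.49 in CD27_KO and 1.28 in WT, Klrg1 by 0.85 and 1.16, and Areg by 2.57 and 1.47. Hdc, the enzyme that makes histamine, had 67 UMIs in members and 1 UMI in ST2-negative Foxp3 cells in CD27_KO, and 107 and 1 in WT, log2 ratios of 5.07 (2.55 to 10.40) and 5.05 (2.54 to 10.37). Hdc was seen in 15 CD27_KO and 13 WT members. The other genes furthest higher were Rnf128, the protease gene Furin, the histone gene Hist1h2ap, Cxcl2, the leukotriene receptor gene Ltb4r1, the insulin signalling gene Irs2 and the integrin gene Itgb3. Hist1h2ap has near-identical copies, and 1 CD27_KO cell held 53.2% of its UMIs there. Of 9 compared TRAF and NF-kB genes 5 were higher, as were 5 of 12 genes induced by the T cell receptor and 5 of 12 immediate early genes. The genes furthest lower were Art2b, Ccl4, Sh2d1a, Timp2, Cxcr3, Zfp281, Ctsw and BE692007. Ccl4 was seen in 6 of 163 CD27_KO members and 6 of 160 of their ST2-negative Foxp3 cells. In WT it was seen in 14 of 406 and 7 of 220, so its ratios rest on few cells. Cxcr3, the chemokine receptor of type 1 responses, had 104 CPM in CD27_KO members and 212 CPM in their ST2-negative Foxp3 cells, and 67.7 and 131 CPM in WT. The 2 populations differ in depth, at medians of 5568 and 2959 UMIs in CD27_KO and 3968.5 and 2456 in WT. Fewer genes passed in either direction when thinned or without deep cells, as given below, settings that also leave fewer genes or cells. The part of depth in each ratio was not tested.

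Set against ST2-positive Gata3 cells without Foxp3, 50 of 6499 genes (0.769%) were 1.5-fold higher in members in both libraries and 27 (0.415%) were lower. Of 16 compared core Treg genes 2 were higher, Ikzf2 and Ikzf4, and none was lower. Of 8 genes of the type 2 list 4 were lower, Il4, Il5, Csf2 and Calca, and none was higher. The furthest higher were Pde2a, Bcl3, Tnfrsf9, Stat5a, Arl5c, Ccr3, Mmd and Gzmb. Stat5a, Pde2a and Arl5c share transcript ends with other genes. Tnfrsf9 had 63.0 CPM in CD27_KO members and 6.67 CPM in their ST2-positive Gata3 cells without Foxp3, and 79.6 and 39.7 CPM in WT. The furthest lower were Calca, Il4, Tnfsf11, Slc7a8, Csf2, Ifitm3, Il5 and Tmem273. Calca, which encodes a neuropeptide precursor, had 30.6 and 102 CPM in CD27_KO, and 26.7 and 76.0 CPM in WT. Il4 had 39.4 CPM in members and 105 CPM in the other cells in CD27_KO, and 10.5 and 30.4 CPM in WT. Most of the genes furthest above ST2-negative Foxp3 cells were not higher in members here. Furin had 375 and 689 CPM in CD27_KO, and 196 and 518 CPM in WT. Hdc, Rnf128, Ltb4r1, Irs2 and Itgb3 also had lower levels in members in both libraries, while Cxcl2 and Hist1h2ap had higher ones. Of the 1325 CD27_KO cells without Foxp3, 11.1% held Ikzf2, against 60.4% of the 599 WT ones. So in WT the cells set against the members held many with a Treg gene but no Foxp3 UMI. The log2 ratio of Ikzf2 in members over these cells was 3.22 in CD27_KO and 0.77 in WT.

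**Figure D5:**
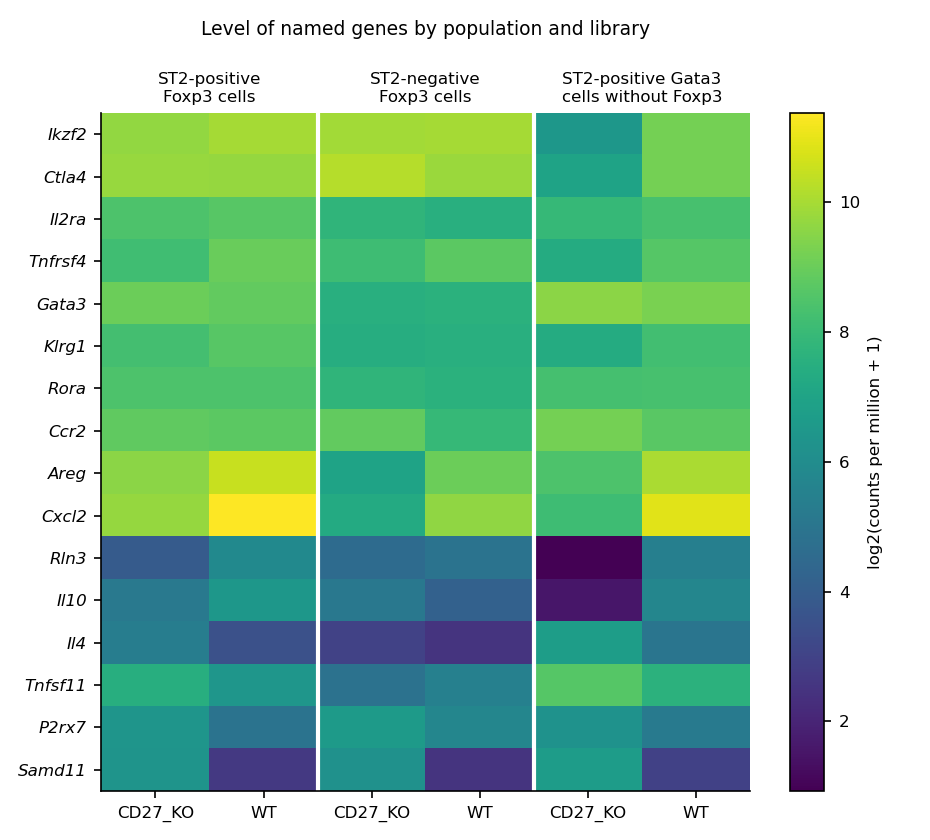
Level of 16 named genes (rows; log2 of CPM plus 1, colour) in ST2-positive Foxp3 cells, ST2-negative Foxp3 cells and ST2-positive Gata3 cells without Foxp3, each with CD27_KO left of WT. Areg and Cxcl2 are lower in CD27_KO in all 3 populations, Samd11 is higher in all 3, and Ikzf2 and Ctla4 are lowest in the CD27_KO cells without Foxp3.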

How the data were processed

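Per the labels' protocols, the T cells of pooled mice were run on a droplet 3′ platform, and 2 kit versions are named. Cell Ranger 6.1.1 made the matrices, per the file headers, and the submitters' processing notes name mm10. The deposited matrices hold raw UMI counts per gene and called cell, 20191704 in CD27_KO and 16628623 in WT. They also hold 1 antibody feature with 0 UMIs. Groups come from the titles, since both libraries carry 1 genotype entry. It is unclear whether 10 mice entered each pool or both together.

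Barcodes under 500 genes or over 10% mitochondrial UMIs were left out (40 in CD27_KO, 60 in WT). No doublet caller was run, and deep cells were left out as an alternative. Members were chosen on Foxp3 and Il1rl1 with no normalization, so values of these genes in members are a description. The members and gene lists were chosen with earlier results of these data known.

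CPM and log2 ratios come from summed UMIs (Python 3.11.15, numpy 2.4.6, scipy 1.17.1, pandas 2.3.3, matplotlib 3.10.9). Shares carry Clopper-Pearson intervals, levels Poisson intervals and ratios conditional binomial intervals. A gene was compared with at least 60 UMIs over both libraries and 10 cells with a UMI, and called at 1.5-fold. List medians use genes with at least 20 UMIs. For thinned shares each cell was thinned to 1300 UMIs. Genes named were a fixed set, the 10 furthest each way between genotypes, the 8 furthest each way against each neighbouring population and up to 4 furthest per list. Where a list held 5 or fewer called genes these are named too, chosen after their values were seen. T cell receptor segments, ribosomal and mitochondrial genes, genes that mark sex and gene models without a name are not named singly, and some genes are not reported here. Gene positions come from GENCODE vM21 and promoters from RefSeq. Transcript ends of 400 bases were compared with BLAST 2.17.0 at 95% identity over 90 bases or more. The ratio step was run on simulated Poisson counts of summed UMIs. These checked the computation only, since they hold no uneven spread of UMIs between cells. Alternatives were other cell filters, scalings, minimum counts, thinning and stricter membership.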

Additional observations from a re-analysis of the deposited data

How the results depend on the processing

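No paired analysis was possible because there is 1 library per genotype. The share ratio of ST2-positive Foxp3 cells, 0.371, stayed below 1 throughout: 0.289 under stricter limits (1000 genes, 5% mitochondrial UMIs), 0.252 thinned, 0.462 with at least 2 UMIs of each gene, 0.283 without cells holding other types' markers, and 0.259 without cells over 2 times the library's median UMIs. The share of Foxp3 cells with Il1rl1, a ratio of 0.778, was 0.572 thinned and 0.602 without those deep cells. The VAT Treg median of -0.26 was -0.38 without each gene's top cell, -0.16 without cells with other types' markers, -0.40 when Ighm, Pecam1 and Hdc did not count as such, -0.12 without deep cells and -0.49 with Ikzf2 and Ctla4 in place of Foxp3. The last 3 settings, wherever used, and 2-fold were chosen after seeing the data.

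Counts of genes moved with the minimum and the scaling. Genes higher in CD27_KO, 352, were 558 with each cell scaled to the same total, 230 centred on the median gene, 713 at 30 UMIs, 176 at 100 UMIs, 119 thinned, 195 with 2 UMIs of each gene, 43 at 2-fold and 93 without deep cells. Genes lower, 189, were 295 with cells scaled to the same total, 393 at 30 UMIs, 105 at 100 UMIs, 102 thinned, 64 at 2-fold and 117 without deep cells. Against ST2-negative Foxp3 cells, the 115 higher were 223 at 30 UMIs, 40 thinned and 44 without deep cells. The 22 lower were 41 with cells scaled to the same total, 36 at 30 UMIs, 12 at 100 UMIs, 10 thinned and 13 without deep cells. Against ST2-positive Gata3 cells without Foxp3, the 50 higher were 100 with cells scaled to the same total, 112 at 30 UMIs, 20 at 100 UMIs and 81 without deep cells. The 27 lower were 86, 54, 15 and 62 under the same settings. Of the 119 higher genes in the thinned counts, where 1721 genes reached the minimum, 20 were among the 352. With no minimum of UMIs applied, 223 of the 352 and 131 of the 189 stayed past 1.5-fold in the thinned counts. Ccl1 reversed, to 0.44 with 2 UMIs of each gene and 0.75 with Ikzf2 and Ctla4 in place of Foxp3. The causes were not tested, beyond the fewer genes and cells that each setting leaves. Depth limits low genes most: at 60 UMIs a 1.5-fold ratio can lie within counting error.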

Other observations

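The genes of the chemokine and amphiregulin region of chromosome 5 were looked at together after their values were seen. Areg (chr5:91139599-91148432) and Cxcl2 (chr5:90903871-90905938) start 235.7 kb apart in mm10, and 24 annotated genes lie within 500 kb of them. The region was chosen because Areg and Cxcl2 were lower. Of its genes, 5 had at least 20 UMIs in ST2-positive Foxp3 cells. These 5, Areg and Cxcl2 included, had a log2 ratio of CD27_KO over WT below 0, as did 39.1% of all 8647 genes so measured. Cxcl1 had 2 UMIs in CD27_KO and 34 in WT, a log2 ratio of -3.21 (-6.31 to -1.25), and Cxcl3 had 23 and 129, a log2 ratio of -1.61 (-2.32 to -0.96). Mthfd2l, a mitochondrial folate enzyme gene between Cxcl2 and Areg, stood at -0.42 with an interval that spans 0 (-1.58 to 0.64). Ereg and Epgn, which also encode growth factors of the EGF family, had no UMI in these cells. In CD27_KO members, 1 cell held 14.3% of the Cxcl2 UMIs and 1 cell 9.05% of the Areg UMIs.

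Usp18 and Il6 had too few UMIs in the members to be compared, and were picked out after their values were seen. Their ratios are a description only, and their values without deep cells are not given here. Usp18, an interferon-induced protease gene, had 23 UMIs in CD27_KO and 9 in WT, a log2 ratio of 2.23 (1.06 to 3.53). Il6 had 19 UMIs in 15 CD27_KO cells and 10 in 5 WT cells, a log2 ratio of 1.80 (0.63 to 3.07).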
